A study of Arabidopsis thaliana with 236 samples.

Results

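The 9 NIN-like proteins of Arabidopsis thaliana, NLP1 to NLP9, were followed in sorted root cells. They were taken as the rows of the deposited table that carry their locus identifiers, and all 9 were present among the 27143 loci of the array. NLP1 (AT2G17150) and NLP8 (AT2G43500) lie on chromosome 2, NLP2 (AT4G35270), NLP3 (AT4G38340) and NLP7 (AT4G24020) on chromosome 4, NLP4 (AT1G20640), NLP5 (AT1G76350) and NLP6 (AT1G64530) on chromosome 1, and NLP9 (AT3G59580) on chromosome 3. NLP1 has 2 rows in the table, which were averaged, and each of the others has 1. No member was left out by any filter.

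NIN-like proteins are plant transcription factors with an RWP-RK domain that binds nitrate-responsive elements in promoters and a PB1 domain through which they bind each other and other proteins. They are named after NODULE INCEPTION (NIN), the legume factor without which rhizobial nodules do not start. In Arabidopsis NLP7 accumulates in the nucleus after nitrate is given, is phosphorylated by the calcium-dependent kinases CPK10, CPK30 and CPK32, binds nitrate itself, and with its closest relative NLP6 switches on the first wave of nitrate-induced genes. NLP8 is known for nitrate-promoted seed germination, and NLP9 is its closest relative.

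Col-0 seedlings carrying a green fluorescent protein marker in either the pericycle or the cortex grew for 9 days on nitrogen-free medium with 0.1 mM KNO3. At dawn they were given 5 mM KNO3 (nitrogen), given Sinorhizobium meliloti, a nodule symbiont of legumes, at an OD600 of 0.8 on 0.1 mM KNO3 (rhizobium), or moved to new plates with 0.1 mM KNO3 (standard). Cells were sorted as protoplasts before treatment (0 h) and at 1, 2, 4, 6, 8, 10, 12, 14, 16, 20, 24, 36 and 48 h, which fell in days of 16 h light. The pericycle set held 41 nitrogen, 42 rhizobium, 38 standard and 5 untreated 0 h arrays, and the cortex set 32 nitrogen, 38 rhizobium, 37 standard and 3 arrays at 0 h, in 80 groups of 2 to 5 arrays. A pair of pericycle standard arrays at 16 h (replicates 2 and 3) read almost the same at every locus (r = 0.999) and was averaged and counted as 1 array, so 37 pericycle standard arrays enter the values below. The promoters driving the marker are not named in the labels. Lateral roots arise in the pericycle, just within the endodermis, and the cortex is the ground tissue on the outer side of it. All values below are deposited log2 intensities, so 1 unit is a doubling of signal, and levels are compared only for the same gene.

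Markers followed the sort in part. The mean of 6 pericycle and stele markers averaged 9.62, 9.69 and 9.54 on the pericycle nitrogen, rhizobium and standard arrays, and 8.63, 8.51 and 7.98 on the cortex arrays of the same treatments. The 5 cortex markers averaged 9.62, 9.69 and 9.41 in pericycle and 10.81, 10.21 and 9.44 in cortex, so on standard arrays they were about equal in both sorts. The 8 endodermis markers were higher on the pericycle arrays, at 9.97, 10.37 and 9.87, than on the cortex arrays, at 7.87, 7.62 and 7.46. They differed widely among the pericycle arrays, from 7.47 to 13.11 on nitrogen, 7.02 to 12.98 with rhizobium and 7.24 to 12.43 on standard plates. The 10 heat shock genes followed were higher on the cortex standard arrays, at 13.64 (range 9.29 to 14.44), than on cortex nitrogen arrays at 9.87 (8.19 to 11.85) and cortex rhizobium arrays at 9.61 (7.91 to 11.69), while in pericycle they averaged 9.68, 9.78 and 10.20. The 7 epidermis and root hair markers averaged 8.49, 8.57 and 7.91 in pericycle and 6.58, 6.57 and 6.49 in cortex. The 5 green tissue markers varied widely within groups and averaged 7.23, 7.91 and 7.06 in pericycle and 9.59, 7.56 and 9.40 in cortex, where the nitrogen arrays ranged from 6.15 to 14.02 and the rhizobium arrays from 5.71 to 11.80. The part of these markers in the results was not tested. For cortex comparisons with the standard arrays, the text says which calls held with the heat shock mean as a covariate, and nitrogen is also set against rhizobium, which uses no standard array. A call lost with that covariate can come from a wider standard error as well as from a smaller difference. In such bulk sorted samples fewer cells of a type and less RNA per cell cannot be told apart, and no label states that replicates were separate cultures, so each p-value reflects spread between arrays that could be technical.

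NLP9 carried the largest difference of the family in all 4 nitrogen comparisons. On the pericycle nitrogen arrays its level ran from 4.68 to 10.89 with a median of 5.85 (n = 41), against 4.81 to 13.71 with a median of 10.06 on the rhizobium arrays (n = 42) and 6.88 to 13.15 with a median of 11.63 on the standard arrays (n = 37). In cortex it ran from 4.65 to 9.79 with a median of 5.63 on nitrogen (n = 32), from 4.69 to 12.93 with a median of 10.42 with rhizobium (n = 38), and from 5.54 to 12.76 with a median of 10.62 on standard plates (n = 37). The lowest deposited value of any locus was 3.69, so the nitrogen arrays sat near the bottom of the scale in both cell types. The deposited table has no call of signal over background, and where a nitrogen reading is at background the difference from it is a lower bound in size. Of the pericycle arrays, 36 of the 41 on nitrogen lay below the lowest standard array. Before treatment NLP9 read 5.56, 13.50, 11.74, 9.65 and 12.64 in pericycle and 10.21, 9.47 and 9.67 in cortex.

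Averaged over the 13 hours, NLP9 fell on nitrogen against the standard arrays, with a log2 difference of -5.13 ± 0.35 (SE; adjusted p = 1.3e-27) in pericycle, and in cortex it fell by 4.00 ± 0.37 (1.8e-18). Against the rhizobium arrays it fell too, with -3.87 ± 0.34 (2.8e-18) in pericycle and -3.18 ± 0.37 (4.1e-12) in cortex. These are contrasts of a limma fit with Benjamini-Hochberg adjustment over all loci, and a gene is called when its adjusted p is below 0.05. With the heat shock mean as a covariate the cortex difference from standard was -3.59 (adjusted p = 1.2e-06).

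**Figure D1:**
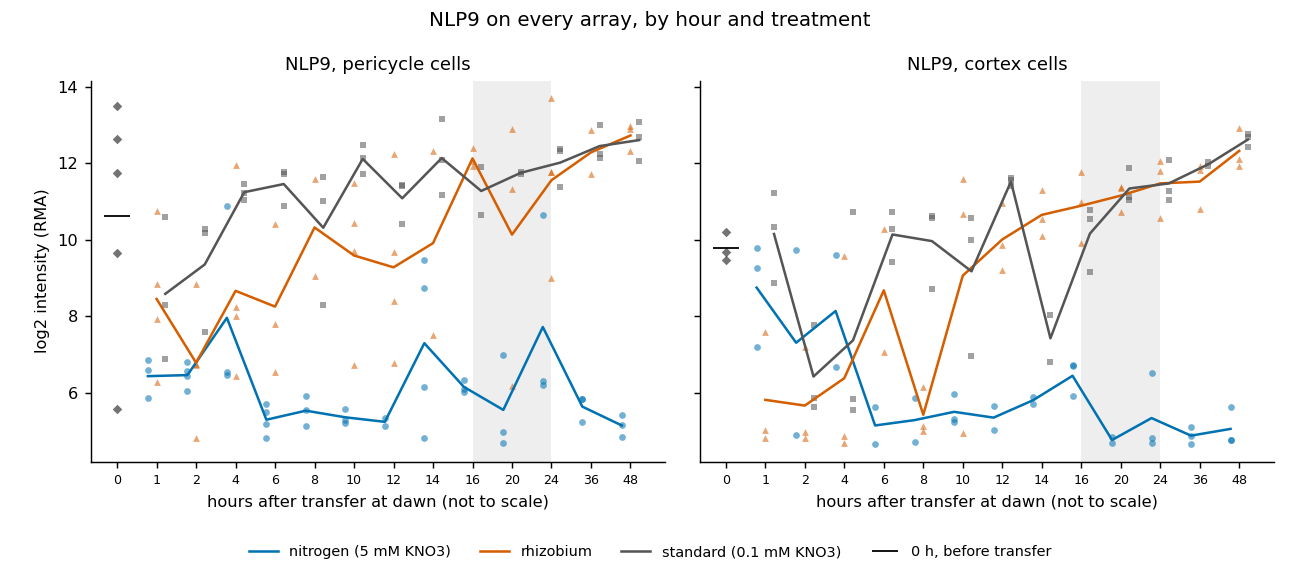
NLP9 by hour in pericycle and cortex: each point is 1 array in log2 intensity (circles nitrogen, triangles rhizobium, squares standard, diamonds 0 h), lines join hour means, the grey band is the dark period and the hours are not drawn to scale. Nitrogen means stayed between 4.76 and 8.75 in both cell types, while rhizobium and standard means lay between 12.32 and 12.72 at 48 h.

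At 48 h the separation was wide. Pericycle cells gave 4.85, 5.15 and 5.42 on nitrogen, 12.97, 12.89 and 12.32 with rhizobium, and 12.07, 12.68 and 13.07 on standard plates. Cortex cells gave 4.77, 4.76 and 5.62 on nitrogen, 12.10, 12.93 and 11.94 with rhizobium, and 12.68, 12.42 and 12.76 on standard plates. No nitrogen array overlapped the other treatments at that hour, and the rhizobium and standard arrays lay within about 1 unit of each other. The difference of nitrogen from standard at 48 h was -7.47 ± 1.23 (adjusted p = 5.9e-05) in pericycle and -7.57 ± 1.23 (5.2e-06) in cortex, both lower bounds in size if these nitrogen readings are at background.

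Taken hour by hour against standard, NLP9 was called lower on nitrogen in pericycle at 7 of 13 hours. The share of all loci called lower at these hours was 0.693% at 6 h, 0.921% at 10 h, 0.317% at 12 h, 0.0774% at 14 h, 0.608% at 20 h, 2.31% at 36 h and 0.0774% at 48 h. The pericycle difference had the same sign at all 13 hours, from -2.15 at 1 h to -7.47 at 48 h. In cortex NLP9 was called lower at 6 hours, with 0.567% of all loci called lower at 6 h, 1.41% at 12 h, 0.228% at 20 h, 1.66% at 24 h, 1.09% at 36 h and 1.71% at 48 h, and its sign was negative at 11 hours. Under the heat shock covariate the cortex calls at 6 h (-4.50, adjusted p = 0.26) and 20 h (-6.14, 0.056) were lost, and those at 12, 24, 36 and 48 h held. Against rhizobium it was called lower at 5 hours in pericycle, where the share of all loci was 1.68% at 10 h, 0.210% at 16 h, 0.519% at 20 h, 1.04% at 36 h and 0.118% at 48 h. It was also called lower at 5 hours in cortex, where the share was 0.814% at 16 h, 0.0332% at 20 h, 0.0774% at 24 h, 0.181% at 36 h and 0.534% at 48 h.

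The early hours differed from the late ones. In the first 6 h the cortex arrays scattered widely: nitrogen arrays ran from 4.65 to 9.79 (median 7.19, n = 9), rhizobium arrays from 4.69 to 10.29 (5.02, n = 11) and standard arrays from 5.54 to 11.23 (9.15, n = 12). At 1 h cortex cells read 9.26, 7.19 and 9.79 on nitrogen, 4.82, 5.02 and 7.59 with rhizobium, and 10.34, 11.23 and 8.88 on standard plates, so the nitrogen arrays lay nearer to standard than the rhizobium arrays did. From 20 to 48 h the cortex nitrogen arrays lay between 4.65 and 6.51 (median 4.81, n = 11), without overlap with rhizobium at 10.58 to 12.93 (11.81, n = 12) or standard at 11.04 to 12.76 (11.92, n = 11). The late pericycle nitrogen arrays ran from 4.68 to 10.64 (5.62, n = 12), below every standard array at 11.37 to 13.07 (12.23, n = 11) and overlapping the rhizobium arrays at 6.18 to 13.71 (12.05, n = 12).

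By window, the nitrogen minus standard difference of NLP9 in pericycle was -3.63 ± 0.59 (adjusted p = 4.3e-05) at 1 to 6 h, -5.47 ± 0.57 (2.2e-13) at 8 to 16 h and -6.20 ± 0.63 (5.0e-14) at 20 to 48 h. In cortex it was -1.19 (0.27), -3.97 ± 0.60 (7.5e-08) and -6.85 ± 0.65 (8.8e-17) in the same windows. The early window in cortex was thus not called, and the other 5 were, with -3.58 (4.9e-04) and -6.34 (1.4e-08) in the later cortex windows under the heat shock covariate. The change of the difference itself, late minus early, was -2.57 (0.11) in pericycle, where 1.83% of all loci were called, and -5.66 (4.3e-05) in cortex, where 1.00% were. Against rhizobium the same change was -4.16 (0.0015; 1.62% of loci called) in pericycle and -7.31 (4.4e-09; 3.92%) in cortex.

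On the other plates NLP9 read higher late than early, and the early window lay partly below the level before treatment. In cortex it read 10.21, 9.47 and 9.67 at 0 h, and 7.77, 5.63 and 5.86 at 2 h on standard plates. With rhizobium the cortex arrays at 1 h read 4.82, 5.02 and 7.59. The pericycle median was 11.74 at 0 h (5.56 to 13.50), beside late medians of 12.23 on standard plates and 12.05 with rhizobium. The rise of NLP9 is counted from the early window, not from 0 h. From early to late hours it rose by 3.64 ± 0.59 (adjusted p = 9.3e-06; 4.26% of loci called) in rhizobium pericycle, by 4.99 ± 0.63 (4.6e-09; 2.81%) in rhizobium cortex and by 3.33 ± 0.63 (1.7e-04; 2.89%) in standard cortex, and its value in standard pericycle was 2.05 ± 0.63 (0.11; 0.571%). On nitrogen its pericycle value was -0.53 ± 0.59 (0.67; 7.39%), and in cortex it fell, with -2.33 ± 0.69 (0.023; 7.27%). This late minus early contrast was added after the values had been seen.

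With rhizobium, NLP9 was lower than standard in the early pericycle hours. In pericycle the early arrays ran from 4.81 to 11.96 (median 7.93, n = 15) with rhizobium and from 6.88 to 11.77 (10.73, n = 12) on standard plates, a difference of -2.12 ± 0.58 (adjusted p = 0.0040; 23.2% of loci called). The call was lost without the arrays numbered 2 (-1.46, 0.11) or 3 (-2.38, 0.077). The middle and late values were -1.14 (0.51) and -0.53 (0.76), where 0.0921% and 0.173% of loci were called, and the change of the difference between early and late was 1.59 ± 0.87 (0.66). In cortex the early value was -1.89 (0.051; 6.33% of loci called), and 8 h was the single hour called, with rhizobium arrays at 5.12, 6.15 and 4.99 and standard arrays at 10.62, 10.57 and 8.70 (-4.54 ± 1.23, 0.022; 0.969% of loci called lower). That hour gave -4.03 (0.15) with the heat shock covariate.

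NLP8 had the next largest fall against standard on nitrogen in both cell types, with NLP3 close to it in pericycle, as given below. Its pericycle nitrogen arrays ran from 6.55 to 12.52 (median 10.08), against 6.43 to 12.74 (11.58) with rhizobium and 9.76 to 13.11 (12.02) on standard plates. Its cortex nitrogen arrays ran from 5.81 to 12.42 (9.49), against 10.51 to 12.83 (11.82) with rhizobium and 10.69 to 13.98 (13.09) on standard plates. The ranges overlapped over all hours, with the nitrogen medians lowest in both cell types. In pericycle, nitrogen against standard, NLP8 fell by 2.00 ± 0.23 (adjusted p = 2.2e-12), and in cortex its difference was -3.51 ± 0.24 (1.2e-27). It fell against rhizobium too, with -1.45 ± 0.22 (2.9e-07) in pericycle and -2.34 ± 0.24 (1.2e-14) in cortex. With the heat shock covariate the cortex difference from standard was -2.84 (2.7e-09).

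NLP8 declined with time on nitrogen. In pericycle its difference from standard was -0.73 (adjusted p = 0.25) at 1 to 6 h, -2.13 ± 0.37 (2.5e-05) at 8 to 16 h and -3.09 ± 0.42 (5.7e-09) at 20 to 48 h. In cortex the same windows gave -1.65 ± 0.44 (0.0086), -4.06 ± 0.39 (7.8e-16) and -4.70 ± 0.43 (6.0e-18). The later cortex windows held with the heat shock covariate, at -3.40 (1.1e-07) and -3.86 (1.0e-07), but the early one did not (-1.10, 0.18), nor without the arrays numbered 1 (-1.40, 0.079) or 3 (-1.51, 0.13). From early to late hours its level on nitrogen changed by -1.72 in pericycle (0.0014) and -2.15 in cortex (7.3e-04), while on standard plates the values were 0.64 (0.72) and 0.89 (0.29).

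Cortex cells at 16 h show the size of it, with 8.26, 6.66 and 6.02 on nitrogen, 11.55, 11.48 and 12.26 with rhizobium, and 13.07, 13.12 and 13.15 on standard plates. The 3 treatments did not overlap at that hour, and nitrogen minus standard was -6.14 ± 0.81 (adjusted p = 2.8e-08; 2.31% of loci called lower). In the late hours the cortex arrays were again in 3 separate ranges, at 5.81 to 9.92 on nitrogen, 11.80 to 12.83 with rhizobium and 13.20 to 13.98 on standard plates. NLP8 was called lower than standard at 3 pericycle hours (20, 36 and 48 h) and at 8 of 13 cortex hours (6, 10, 12, 16, 20, 24, 36 and 48 h). At 10 h in cortex, an hour at which NLP9 was not called, 1.29% of all loci were called lower. The cortex calls of NLP8 held under the heat shock covariate at 12, 16 and 48 h and were lost at 6, 10, 20, 24 and 36 h.

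The nitrogen difference of NLP8 was smaller in pericycle than in cortex. The interaction, pericycle difference minus cortex difference, was 1.52 ± 0.33 (adjusted p = 2.0e-04), in a test that called 22.7% of all loci, but with the heat shock mean as a covariate it was 0.93 (0.11), and without the arrays numbered 3 it was 1.17 (0.054). Set against rhizobium, without any standard array, it was 0.90 (0.087; 3.51% of loci called). For NLP9 the interaction was -1.13 ± 0.51 (0.095), and so a difference between the cell types was not shown. Its nitrogen medians lay near the bottom of the scale, at 5.85 in pericycle and 5.63 in cortex. Where such readings are at background, this test cannot compare the full size of the fall between the cell types.

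**Figure D2:**
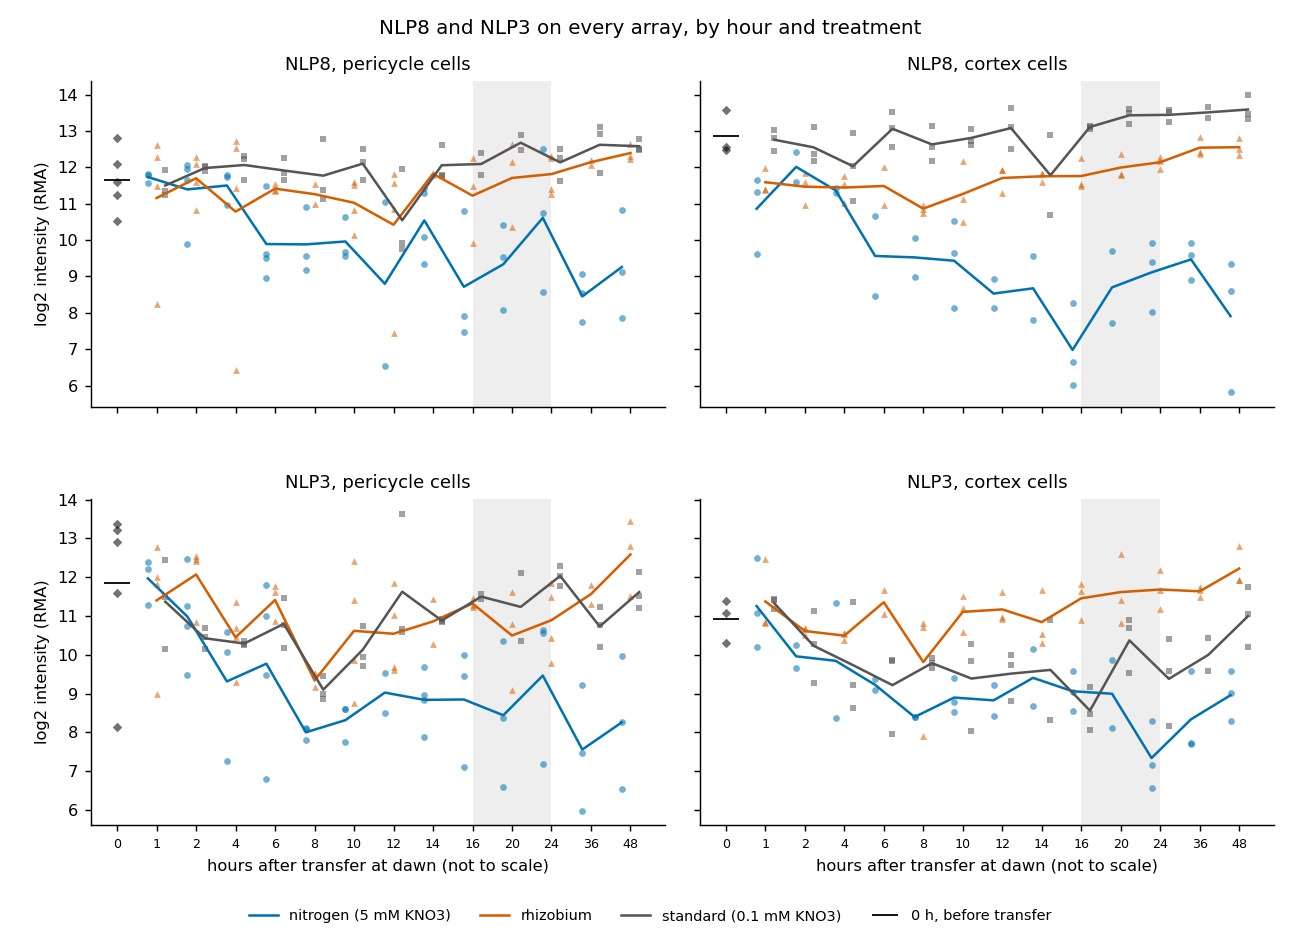
NLP8 and NLP3 by hour in pericycle and cortex, in log2 intensity: points are arrays (circles nitrogen, triangles rhizobium, squares standard, diamonds 0 h), lines join hour means, the grey band is the dark period and the hours are not drawn to scale. In the late cortex hours NLP8 lay in 3 separate ranges, at 5.81 to 9.92 on nitrogen, 11.80 to 12.83 with rhizobium and 13.20 to 13.98 on standard plates.

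NLP3 separated nitrogen from rhizobium more than from standard in cortex. Its pericycle arrays ran from 5.98 to 12.46 (median 9.23) on nitrogen, from 8.76 to 13.44 (11.34) with rhizobium and from 8.87 to 13.64 (10.76) on standard plates. In cortex they ran from 6.57 to 12.49 (9.02) on nitrogen, 7.90 to 12.81 (11.11) with rhizobium and 7.95 to 11.75 (9.84) on standard plates. The rhizobium arrays were thus the highest by median in both cell types. NLP3 fell on nitrogen against rhizobium, with -1.91 ± 0.24 (adjusted p = 3.5e-10) in pericycle and -2.07 ± 0.26 (1.1e-10) in cortex, and against standard, with -1.77 ± 0.24 (3.5e-09) in pericycle and -0.74 ± 0.26 (0.017) in cortex. The cortex difference from standard was not called without the arrays numbered 1 (-0.50, adjusted p = 0.35) or without 24 h or 48 h (-0.63 each), and was -1.23 (0.025) with the heat shock covariate.

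The fall of NLP3 on nitrogen came after the first hours. Its pericycle difference from standard was -0.21 (adjusted p = 0.81) at 1 to 6 h, -2.04 ± 0.40 (2.0e-04) at 8 to 16 h and -2.98 ± 0.44 (2.1e-07) at 20 to 48 h, and the late minus early change was -2.76 (0.0049). At 48 h pericycle cells gave 8.27, 9.96 and 6.54 on nitrogen, 11.51, 12.81 and 13.44 with rhizobium, and 11.51, 12.14 and 11.20 on standard plates. Cortex cells at 24 h gave 8.29, 7.15 and 6.57 on nitrogen, 11.68, 12.19 and 11.18 with rhizobium, and 9.57, 8.17 and 10.40 on standard plates. All 3 nitrogen arrays lay below all others at 48 h in pericycle, and at 24 h in cortex the rhizobium arrays lay above both other treatments while 1 nitrogen array lay above the lowest standard array. Over 20 to 48 h the cortex nitrogen arrays, at 6.57 to 9.87, did not overlap the rhizobium arrays at 10.83 to 12.81.

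Relative to standard, the rhizobium value of NLP3 was 0.14 (adjusted p = 0.72) in pericycle, while in cortex NLP3 was higher with rhizobium by 1.33 ± 0.25 (3.5e-06), with a positive sign at all 13 hours. The cortex value was 1.51 (0.0022) at 8 to 16 h, where 21.9% of loci were called, and 1.60 (0.0070) at 20 to 48 h, where 14.2% were. Both were lost with the heat shock covariate (0.96 each, adjusted p = 0.25 and 0.36). The interaction of cell type with rhizobium was -1.19 ± 0.35 (0.0044; 33.4% of loci called). With the heat shock mean as a covariate the cortex value was 0.80 (0.19) and the interaction -0.72 (0.25), and without the arrays numbered 1 the interaction was -1.01 (0.11).

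NLP2 and the pair NLP4 and NLP5 differed less. NLP2, which acts beside NLP7 in vegetative nitrate responses, had pericycle medians of 8.77 on nitrogen and 10.00 on standard plates. Its cortex nitrogen arrays lay at 5.91 to 10.75 (median 9.01), rhizobium arrays at 8.14 to 11.67 (10.57) and standard arrays at 8.09 to 11.39 (10.15). Nitrogen minus standard was -1.17 ± 0.27 (adjusted p = 7.2e-04) in pericycle and -1.27 ± 0.29 (2.1e-04) in cortex, and nitrogen minus rhizobium was -0.66 (0.086) in pericycle and -1.51 ± 0.29 (2.7e-05) in cortex. In cortex from 20 to 48 h its nitrogen arrays, at 6.69 to 9.47, overlapped neither rhizobium, at 9.63 to 11.67, nor standard, at 9.91 to 11.39. Without the arrays numbered 3 the pericycle difference from standard was -0.89 (0.065), and the cortex one was -0.84 (0.21) with the heat shock covariate.

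NLP4 arrays of pericycle ran from 9.29 to 12.69 (median 11.68) on nitrogen, 6.12 to 13.13 (12.31) with rhizobium and 10.55 to 13.19 (12.37) on standard plates. Those of cortex ran from 9.83 to 12.50 (11.83) on nitrogen, from 11.33 upward (12.56) with rhizobium and from 11.18 to 13.49 (12.86) on standard plates. Nitrogen again had the lowest median in both. Nitrogen minus standard was -0.76 ± 0.17 (adjusted p = 4.3e-04) in pericycle and -1.08 ± 0.18 (4.4e-07) in cortex, where it was -1.15 (0.0024) with the heat shock covariate. Nitrogen minus rhizobium was -0.52 ± 0.17 (0.025) in pericycle and -0.73 ± 0.18 (0.0018) in cortex. At 1 to 6 h NLP4 was called lower against standard in pericycle, at -1.10 ± 0.30 (0.013), and in cortex, with an adjusted p of 0.042. The pericycle call was lost without the arrays numbered 1 (-1.01, 0.13) or 3 (-0.90, 0.40). The cortex call was lost without those numbered 1, 2 or 3 (-0.63, -1.39 and -0.98), with centred arrays (-0.91, 0.067) and with the heat shock covariate (-1.05, 0.088). At 48 h in cortex it read 11.78, 12.06 and 12.14 on nitrogen, 12.53, 12.88 and 12.96 with rhizobium, and 13.24, 13.36 and 13.33 on standard plates, in 3 ranges that did not overlap. On nitrogen NLP4 was not called at that or any other single cortex hour, against standard or against rhizobium. How many of all loci separated in this way at 48 h was not counted. The pericycle difference from rhizobium lost its call without replicate number 1, 3 or 4 (-0.38, -0.54 and -0.45) and in 7 of 13 cases with 1 hour left out (4, 6, 8, 16, 24, 36 or 48 h; -0.49 to -0.46).

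NLP5 fell on nitrogen against standard, with -0.84 ± 0.20 (adjusted p = 7.2e-04) in pericycle and -0.65 ± 0.21 (0.0090) in cortex. Its medians were 11.34 on nitrogen, 11.54 with rhizobium and 12.23 on standard plates in pericycle, and 11.99, 12.57 and 12.65 in cortex. Against rhizobium the values were -0.34 (0.25) in pericycle, which was not called, and -0.76 ± 0.21 (0.0049) in cortex. The cortex difference from standard was -0.43 (0.40) with the heat shock covariate and -0.60 (0.11) without the arrays numbered 1.

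NLP6 and NLP7 are the members best known from the primary nitrate response. NLP7 had medians of 12.27 on nitrogen, 12.39 with rhizobium and 12.47 on standard plates in pericycle, and of 12.37, 12.52 and 12.64 in cortex. Its nitrogen minus standard difference was -0.18 ± 0.12 (adjusted p = 0.31) in pericycle, with a 95% interval from -0.42 to 0.06, and -0.37 ± 0.13 (0.019) in cortex. That cortex call was lost with the heat shock covariate (-0.27, 0.39), with arrays centred on their medians (-0.28, 0.10), without the arrays numbered 1 (-0.26) or 2 (-0.43, 0.067), and without 6 h (-0.28, 0.10).

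NLP6 had medians of 11.89 on nitrogen, 11.89 with rhizobium and 11.87 on standard plates in pericycle, and of 11.92, 12.46 and 11.95 in cortex. Its nitrogen minus standard difference was 0.12 ± 0.17 (adjusted p = 0.65) in pericycle, with a 95% interval from -0.21 to 0.46, and -0.10 ± 0.18 (0.69) in cortex, where the heat shock covariate gave 0.22 (0.64). With rhizobium, NLP6 was higher than standard in cortex by 0.56 ± 0.17 (0.0061). This was 0.91 (0.022) with the heat shock covariate, 0.46 (0.085) without the arrays numbered 2 and 0.52 (0.076) without those numbered 3. The cortex nitrogen arrays at 2 h read 12.91 and 6.74, so the call at that hour (-2.31 ± 0.67, 0.035; 1.72% of loci called lower) rests on 1 array out of line with its partner, and the difference was 0.78 (1.0) without that array. NLP6 was also lower on nitrogen than with rhizobium in cortex (-0.66 ± 0.18, 0.0045), and this was -0.38 (0.36) without the arrays numbered 2, which include that one, and -0.42 (0.069) with that array alone left out.

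NLP6 was the single member called higher on nitrogen in any window, against standard or rhizobium. From 20 to 48 h its pericycle nitrogen arrays ran from 11.69 to 13.08 (median 12.04, n = 12), against 9.11 to 12.35 (11.26, n = 12) with rhizobium and 9.31 to 12.80 (11.87, n = 11) on standard plates. The nitrogen arrays were the highest by median, with overlap. Nitrogen minus rhizobium was 1.01 ± 0.30 (adjusted p = 0.024; 2.19% of loci called higher), while nitrogen minus standard was 0.74 (0.13). The call was lost without the arrays numbered 1 (0.57, 0.40) or 3 (1.14, 0.089).

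NLP1 was not called on nitrogen in either cell type. Its medians were 10.35 on nitrogen, 9.27 with rhizobium and 10.22 on standard plates in pericycle, and 10.61, 10.72 and 10.87 in cortex. Nitrogen minus standard was -0.05 ± 0.23 (adjusted p = 0.91; 95% interval -0.50 to 0.41) in pericycle and -0.49 ± 0.25 (0.11) in cortex, where the heat shock covariate gave -0.60 (0.30). Its 2 table rows did not read alike: rhizobium minus standard in pericycle was -0.16 for row 1 and -1.01 (0.040) for row 2.

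**Figure D3:**
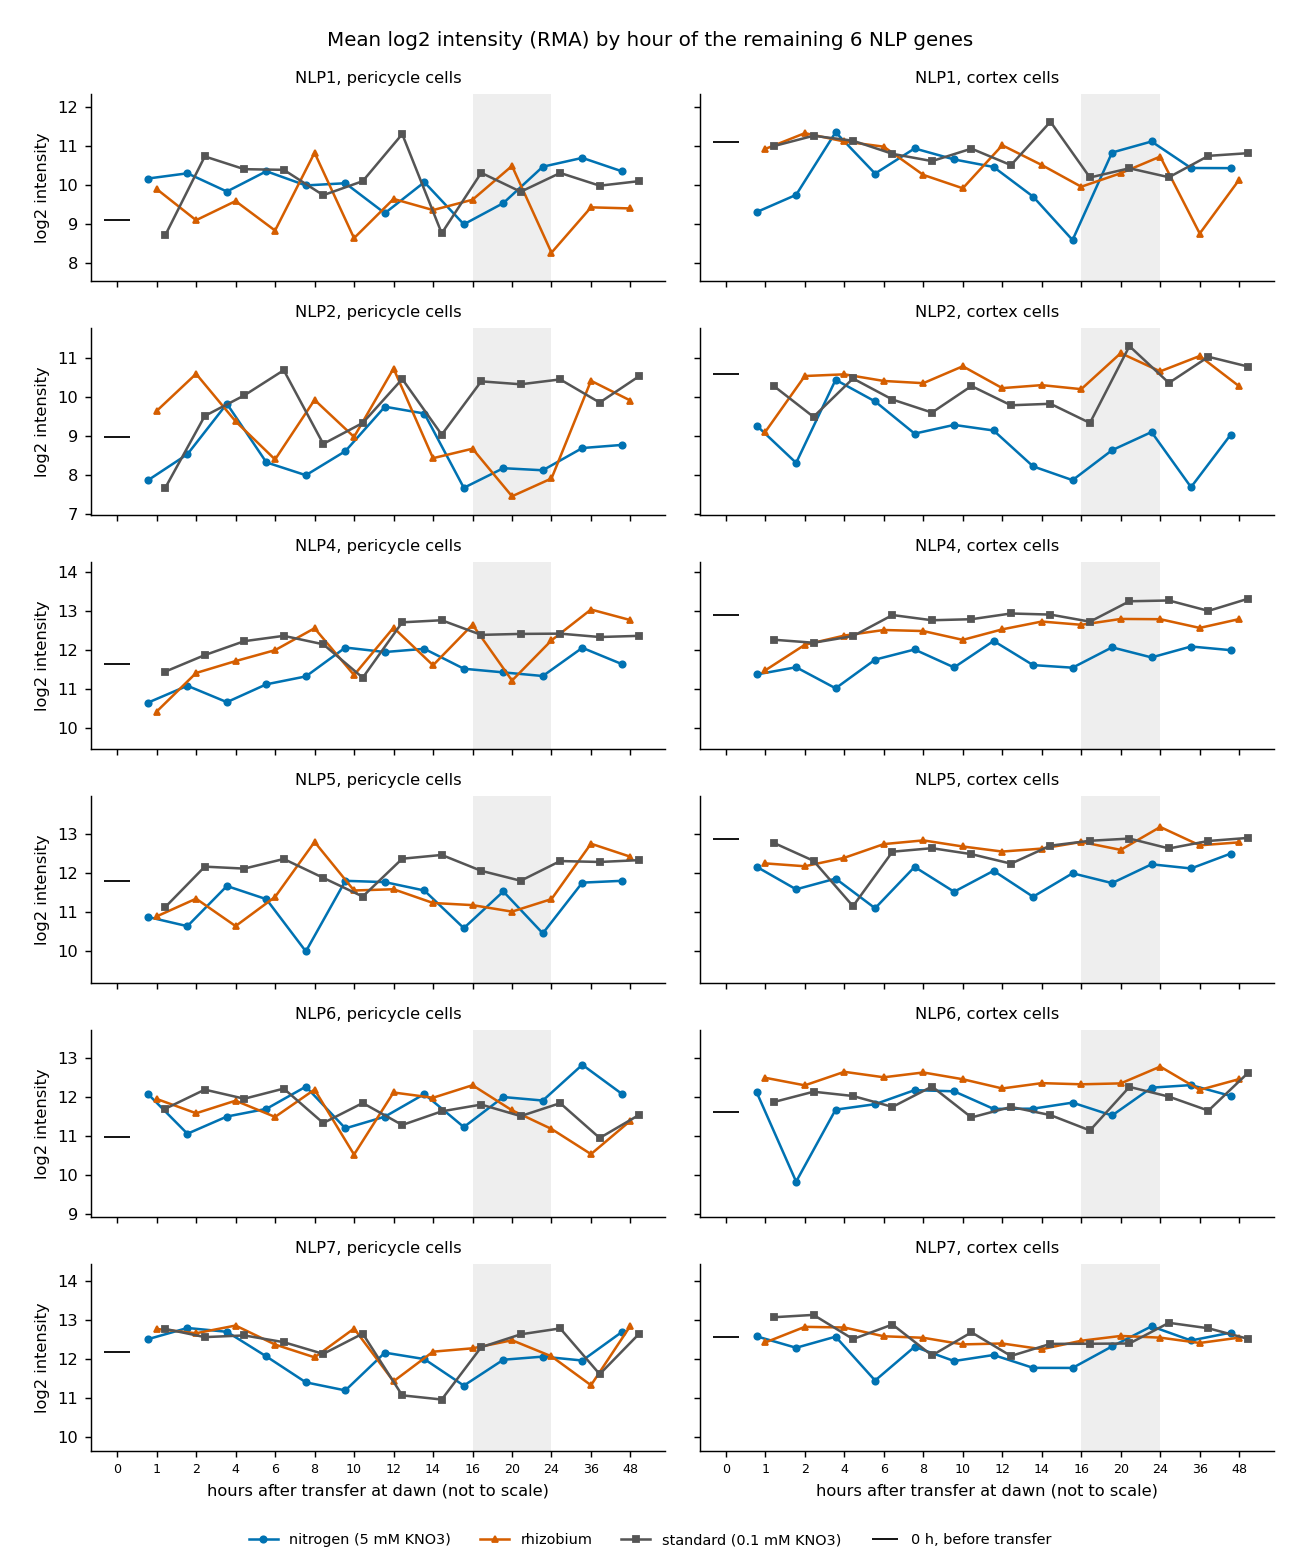
Hour means in log2 intensity of NLP1, NLP2, NLP4, NLP5, NLP6 and NLP7 in pericycle and cortex for nitrogen, rhizobium and standard plates, with the short black line for 0 h, the grey band for the dark period and hours not drawn to scale (points of the 3 treatments are set slightly apart). The nitrogen line of NLP2 and NLP4 in cortex lay below the standard line at all 13 hours, and the nitrogen mean of NLP6 in cortex dipped at 2 h, where its arrays read 12.91 and 6.74.

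Counted over the family, nitrogen against standard called 6 of 9 members in pericycle, all lower, where 19.6% of all loci were called (11.1% lower and 8.52% higher). In cortex it called 7 of 9, all lower, where 35.7% of loci were called (14.8% lower and 20.9% higher), and 4 with the heat shock covariate (NLP3, NLP4, NLP8 and NLP9), where 14.4% were. Against rhizobium it called 4 of 9 in pericycle (14.2% of loci; 7.92% lower) and 7 of 9 in cortex (14.8%; 7.60% lower), again all lower, with the NLP6 call in cortex lost without 1 array as above. The median difference over the 9 members was -0.84 in pericycle and -0.74 in cortex against standard, beside 0.04 and 0.08 over all loci, and -0.52 and -0.76 against rhizobium, beside -0.03 and -0.00. These comparisons share the nitrogen arrays, and those of nitrogen and rhizobium with standard share the standard arrays. Both cell types also share 1 estimate of spread per locus, so their counts of calls are not directly comparable.

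Rhizobium against standard called 1 of 9 in pericycle, NLP9 at -1.26 ± 0.35 (adjusted p = 0.0047), where 21.9% of all loci were called. In cortex it called 3 of 9, NLP3 and NLP6 higher and NLP8 lower at -1.17 ± 0.23 (1.2e-05), where 37.8% were called. Neither share of members exceeds that over all loci. The pericycle call of NLP9 was lost without the arrays numbered 2 (-1.06, 0.066) or 3 (-1.19, 0.099), and the cortex call of NLP8 with the heat shock covariate (-0.44, 0.48). NLP9 in cortex was -0.82 ± 0.35 (0.052), and it was called when 14 h (-1.16, 0.0067), 16 h, 20 h or 24 h was left out. In pericycle NLP1 was called without 1, 8, 14 or 20 h (-0.73 to -0.68) and NLP5 without 8, 10, 36 or 48 h (-0.62 to -0.55). By window, NLP8 in rhizobium cortex was -1.21 (0.0097) at 8 to 16 h and -1.19 (0.038) at 20 to 48 h, and NLP6 was 0.76 (0.033) at 8 to 16 h. The NLP8 windows were lost with the heat shock covariate (-0.44 and -0.29) and that of NLP6 held (1.13, 0.033), but the NLP6 window was lost without the arrays numbered 2 (0.66) or 3 (0.76, 0.18).

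**Figure D4:**
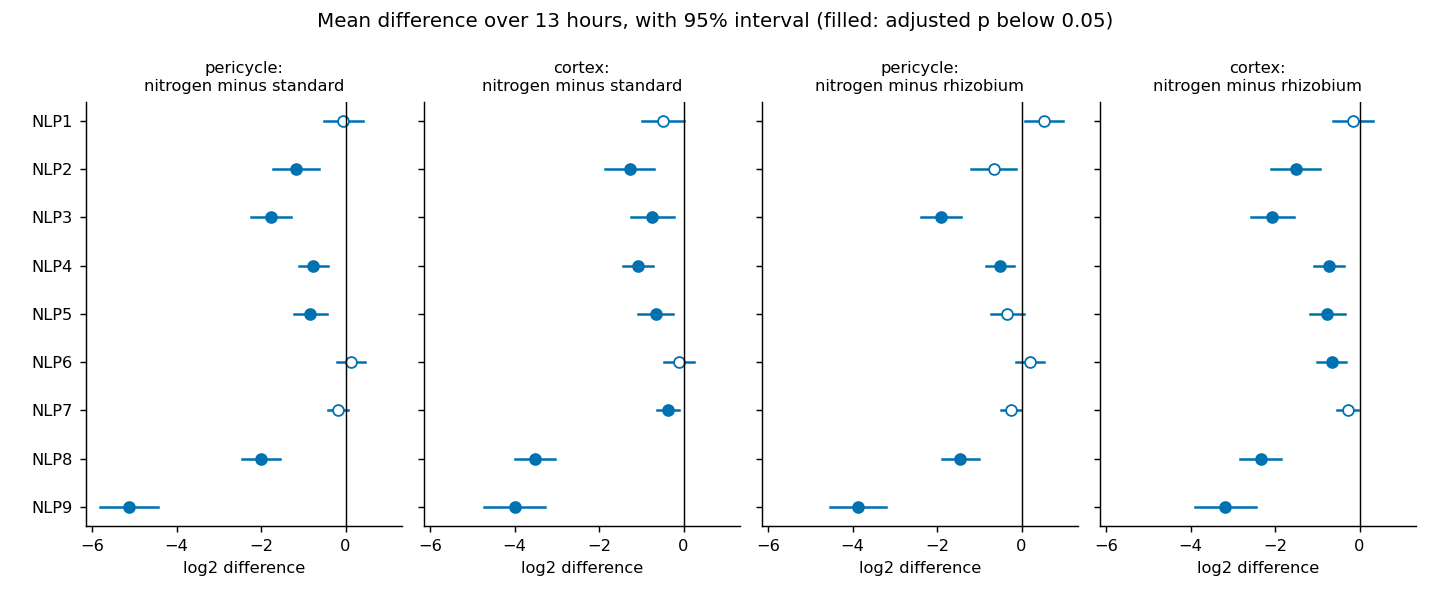
Mean log2 differences of the 9 members over 13 hours in 4 panels, nitrogen minus standard and nitrogen minus rhizobium in pericycle and in cortex: dots are differences, bars 95% intervals, and filled dots have an adjusted p below 0.05. NLP9 lay lowest in pericycle against standard and against rhizobium, at -5.13 and -3.87, and NLP1, NLP6 and NLP7 lay near 0 in pericycle against standard.

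By window, nitrogen against standard called 2 members in pericycle at 1 to 6 h (NLP4 and NLP9; 6.61% of loci), 3 at 8 to 16 h (NLP3, NLP8 and NLP9; 6.23%) and 4 at 20 to 48 h (those 3 and NLP2; 8.66%). In cortex it called 2 in the first window (NLP4 and NLP8; 8.33%), 3 in the next (NLP4, NLP8 and NLP9; 16.6%) and 5 in the last (those 3 with NLP2 and NLP3; 14.7%). The cortex counts with the heat shock covariate were 0, 2 (NLP8 and NLP9) and 4 (without NLP2). Against rhizobium it called no member in the early pericycle window, where 0.431% of loci were called, and only NLP6, lower, in the early cortex window (3.66%). That NLP6 value, -1.13 (adjusted p = 0.039), was -0.35 (0.68) without the cortex nitrogen array at 2 h that read 6.74. At 8 to 16 h it called NLP3, NLP8 and NLP9 lower in pericycle (6.11%) and those 3 with NLP2 lower in cortex (6.20%). In the late windows it called NLP3, NLP8 and NLP9 lower in both cell types, with NLP2 lower in cortex and NLP6 higher in pericycle (6.48% in pericycle and 6.79% in cortex). Without 1 replicate number, NLP2, NLP3, NLP4, NLP6 and NLP8 each lost at least 1 of these nitrogen window calls, and NLP9 lost none.

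An F test over all 13 nitrogen minus standard differences called NLP3 (adjusted p = 1.4e-06), NLP7 (0.018), NLP8 (2.5e-09) and NLP9 (1.7e-21) in pericycle, where 10.4% of loci were called, and NLP4 (0.0078), NLP8 (1.1e-24) and NLP9 (2.0e-17) in cortex, where 16.6% were. NLP4 in cortex was lost with the heat shock covariate (0.58). NLP7 is the member here whose mean difference was not called, and its pericycle call was lost with centred arrays (0.087) and without the arrays numbered 1 (0.22) or 2 (0.21). At 10 h in pericycle it read 11.46, 11.14 and 11.02 on nitrogen, 13.09, 13.63, 12.22 and 12.23 with rhizobium, and 13.74, 12.69 and 11.56 on standard plates. All 3 nitrogen arrays were below all others at that hour, and nitrogen minus rhizobium was -1.59 ± 0.40 (0.014; 1.68% of loci called lower).

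The same test for rhizobium minus standard called NLP1 (adjusted p = 0.043) and NLP2 (0.040) in pericycle, where 14.9% of loci were called, and NLP3 (0.0047) and NLP9 (0.015) in cortex, where 13.5% were. In pericycle NLP1, an average of 2 rows that did not read alike, was lost with centred arrays (0.12), NLP2 with the heat shock covariate (0.065), and both without the arrays numbered 2, 3 or 4 and with pericycle fitted alone. In cortex both calls were lost with the heat shock covariate (NLP9 at 0.23) and without the arrays numbered 1, 2 or 3.

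Pericycle was also set against cortex on each kind of plate. On nitrogen, 2 of 9 were called between pericycle and cortex, with NLP8 higher in pericycle by 0.61 ± 0.24 (adjusted p = 0.047) and NLP5 lower at -0.67 ± 0.21 (0.010), where 23.3% of loci were called. With rhizobium 6 of 9 were called (53.2% of loci), with NLP9 higher in pericycle by 0.85 ± 0.34 (0.030) and NLP1, NLP2, NLP4, NLP5 and NLP6 lower, between -1.17 and -0.50. On standard plates with 0 h 7 of 9 were called (39.2%), with NLP3 higher by 1.04 ± 0.24 (1.5e-04) and NLP9 by 1.25 ± 0.34 (0.0015), and NLP1, NLP4, NLP5, NLP7 and NLP8 lower, between -0.92 and -0.36.

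The standard comparison holds the cortex arrays with high heat shock genes, and with that mean as a covariate 3 members were called, NLP1, NLP4 and NLP9 (1.63, adjusted p = 0.016), while NLP3 was 0.59 (0.25) and NLP8 -0.30 (0.56). The number of all loci called in this comparison fell with the covariate too, as the last section gives. Of the smaller calls, NLP8 on nitrogen was lost without the arrays numbered 1, 3 or 4 (0.39, 0.41 and 0.58), and NLP9 with rhizobium without those numbered 1, 2 or 3 (0.94, 0.71 and 0.96). NLP9 on standard plates was 1.05 (0.055) without those numbered 3. The calls of NLP4 with rhizobium and of NLP1, NLP4, NLP5 and NLP7 on standard plates were each lost without 1 or more of the replicate numbers, and so was that of NLP5 on nitrogen (-0.54). NLP1 again differed between its rows, with pericycle minus cortex at -0.35 (0.15) and -1.63 (1.3e-04) with rhizobium.

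**Figure D5:**
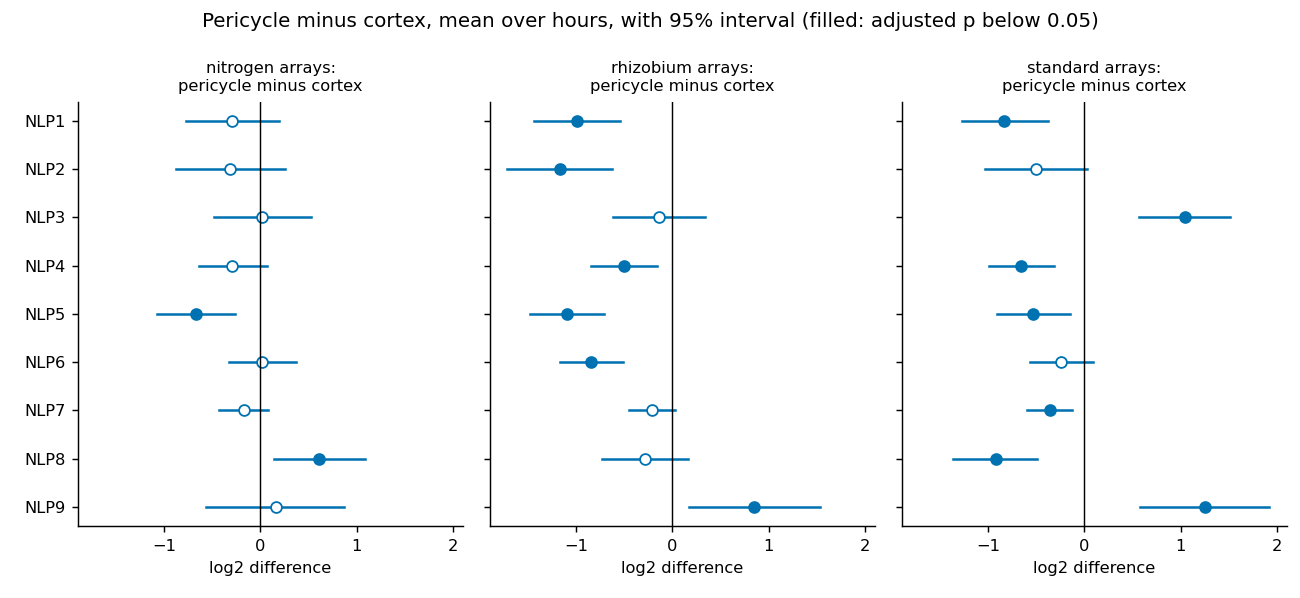
Pericycle minus cortex in log2 units for the 9 members on nitrogen, rhizobium and standard plates, 1 panel each: dots are means of same-hour differences, bars 95% intervals, and filled dots have an adjusted p below 0.05. NLP9 lay above 0 with rhizobium (0.85) and on standard plates (1.25), and NLP5 lay below 0 on all 3, between -1.09 and -0.53.

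Time of day was examined by setting 12 and 36 h, 12 h after dawn, against 24 and 48 h, at dawn, over the 3 treatments. In pericycle NLP7 was lower 12 h after dawn, at a mean of 11.61 against 12.53 at dawn (-0.92 ± 0.18, adjusted p = 0.0014), where 1.30% of all loci were called, and it was the 1 member called. Its standard arrays read 12.17, 9.71 and 11.36 at 12 h and 11.84, 10.67 and 12.36 at 36 h, against 13.30, 12.50 and 12.59 at 24 h and 13.17, 12.63 and 12.18 at 48 h. The rhizobium arrays ran from 11.02 to 11.74 at 12 and 36 h, below those at 24 and 48 h (11.79 to 13.18). The nitrogen arrays overlapped, at 10.94 to 12.75 against 11.49 to 12.98. No test was made by treatment. The 0 h pericycle arrays, also taken at dawn but not in the contrast, read 11.53, 12.69, 13.30, 12.89 and 10.56. They thus overlapped the arrays at 12 and 36 h. The dawn hours in the contrast came later after transfer on average, so time of day is not fully separate from time since transfer. The call was lost without the arrays numbered 2 (-0.83, 0.18) or 3 (-0.95, 0.056) and when pericycle was fitted alone (-0.92, 0.058). In cortex no member was called, NLP7 was -0.30, and 0.114% of loci were called.

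Across the 80 group means the members did not form 1 cluster. The closest pairs were NLP8 with NLP9 (Pearson r = 0.76) and NLP4 with NLP5 (0.75), followed by NLP2 with NLP5 (0.66) and NLP3 with NLP9 (0.62), and the lowest was NLP1 with NLP3 (-0.20). Among all loci the most similar to NLP9 were DUR3, a high-affinity urea transporter, and AT2G36630, both at 0.80. Those most similar to NLP3 were AT5G02230 (0.78) and AMT1;1, an ammonium transporter (0.76), and to NLP8 AT1G56140 (0.89) and AT2G26390 (0.86). NLP4 was closest to CYP71A22 (0.78), NLP5 to FRA1 (0.76), NLP6 to AT2G04800 (0.69), NLP7 to AT1G33110 (0.70), and NLP2 to NLP5, then GLU2, a glutamate synthase (0.65). These correlations describe groups that share treatments and hours, and they carry no test.

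Of 24 nitrate-induced genes taken as targets of these factors, 16 were higher and 1 lower on nitrogen than on standard plates in pericycle, and 15 were higher and 2 lower in cortex, beside 8.52% of all loci higher in pericycle and 20.9% in cortex. Under the heat shock covariate 6 were higher and 1 lower in cortex, beside 8.01% and 6.37% of all loci. Against rhizobium 16 were higher and 1 lower in each cell type, beside 14.2% of all loci called in pericycle (7.92% lower) and 14.8% in cortex (7.60% lower). The median over the list was 0.53 in pericycle and 0.57 in cortex against standard, beside 0.04 and 0.08 over all loci. In pericycle AT3G25790 rose by 3.12 ± 0.37 (adjusted p = 1.2e-11), the haemoglobin gene HB1 by 2.85 ± 0.32 (2.5e-12) and LBD39, a repressor of nitrate assimilation genes, by 1.39 ± 0.19 (3.5e-09). In cortex HB1 rose by 2.92 ± 0.35 (1.4e-12) and LBD39 by 2.85 ± 0.20 (2.8e-26), the scaffold protein gene BT2 by 2.27 ± 0.24 (7.7e-15), and the nitrate transporter gene NRT2.1 by 1.20 ± 0.26 (7.4e-05). The cortex values with the heat shock covariate were 1.75 (0.014) for HB1, 2.45 (2.0e-09) for LBD39, 1.86 (1.3e-04) for BT2 and 0.99 (0.084) for NRT2.1.

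Nitrite reductase, NIR1, rose by 0.30 ± 0.10 (adjusted p = 0.026) in pericycle and 0.38 ± 0.11 (0.0033) in cortex. The nitrate reductase gene NIA2 had differences of 0.03 (0.74) in pericycle and 0.14 (0.10) in cortex. NRT3.1, the partner protein of NRT2.1, went the other way, with -1.70 ± 0.35 (1.0e-04) in pericycle and -1.30 ± 0.38 (0.0033) in cortex, and the TGA4 transcription factor gene fell too in cortex (-0.83 ± 0.15, 1.7e-06). The covariate gave cortex values of 0.19 (0.50) for NIR1, -1.51 ± 0.58 (0.064) for NRT3.1 and -0.73 (0.020) for TGA4. NRT3.1 thus lost its cortex call with a larger difference and a wider standard error.

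The 24 targets and NLP9 went opposite ways on average, and single arrays followed this in part. NLP9 was highest among the pericycle nitrogen arrays on replicate 2 of 4 h (10.89), on replicate 3 of 24 h (10.64), and on replicates 2 and 3 of 14 h (9.48 and 8.74). The mean of the 24 targets on these 4 arrays was 11.76, 11.50, 10.94 and 10.28, against 10.28 to 12.55 over all 41 pericycle nitrogen arrays. Both 14 h arrays were the lowest of the 41 in the target mean, so on them high NLP9 went with low targets. The 4 h and 24 h arrays ranked 28 and 13 from the lowest. NLP8 read 11.31 and 11.43 on these 14 h arrays, against 9.35 and 10.08 on replicates 1 and 4 of that hour. The arrays highest in the target mean were replicate 1 of 1 h, replicate 3 of 2 h and replicate 3 of 1 h. They did not have low NLP9, at 6.58, 6.56 and 6.86, above its pericycle nitrogen median of 5.85. NLP8 on them was 11.83, 12.08 and 11.58, above its median of 10.08. Over all 41 arrays the relation was not tested.

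Among 8 genes of proteins known to act on or with NLPs, the kinase gene CPK32 fell on nitrogen against standard, with -0.44 ± 0.09 (adjusted p = 7.8e-05) in pericycle and -0.96 ± 0.10 (2.0e-16) in cortex, and against rhizobium, with -0.28 ± 0.09 (0.021) and -0.47 ± 0.09 (8.3e-05). In cortex CPK10 fell against standard (-1.22 ± 0.23, 4.9e-06), with -0.28 (0.44) against rhizobium. The nitrate transceptor gene NPF6.3 fell there as well (-0.58 ± 0.21, 0.023), with 0.42 (0.17) against rhizobium. AT3G60320 differed from standard by -0.43 ± 0.16 (0.043) in pericycle and by 0.70 ± 0.17 (3.8e-04) in cortex. In all, 2 of 8 were lower in pericycle against standard, beside 11.1% of all loci, and in cortex 3 were lower and 1 was higher, beside 14.8% and 20.9%. In the fit with the heat shock covariate CPK32 (-0.80, 2.8e-05) and CPK10 (-1.58, 6.9e-04) held in cortex, as did AT3G60320 (0.95, 0.0069), and NPF6.3 did not (-0.64, 0.19). Among the 5 RKD genes, RWP-RK relatives known from egg cells and embryos, none was called in pericycle. In cortex 2 of 5 were called, RKD1 and RKD4, beside 35.7% of all loci, and none was with the heat shock covariate. Their mean read 5.34 on pericycle and 5.40 on cortex nitrogen arrays, near the bottom of the scale, so no size of change is given for them.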

How the data were processed

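The series measured RNA of sorted root cells on 236 single-colour NimbleGen arrays, built on TAIR10. Per the submitters' processing notes, the authors made the deposited log2 intensities by RMA; the program behind it is not given in the sources used here. Nothing was taken from raw scans. The table's 31524 rows ran from 3.69 to 15.53, with array medians from 8.44 to 9.23, and rows of 1 locus were averaged to 27143 loci without further scaling or filtering. In pericycle standard cells at 16 h, replicates 2 and 3 correlated at 0.999, above the limit of 0.995, differed by far less than other pairs (the next at 0.974) and were averaged and counted as 1 array, which left 235. Group, hour and replicate came from sample titles. The series record lists other hours in part, names epidermal beside cortical cells in one sentence, and plants grown for 9 days carry a label of 12 days of age.

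With limma 3.58.1 (R 4.3.3, data.table version 1.17.8), 1 mean per group was fitted (prior df 3.04, residual df 155) and checked on simulated data. All 80 groups shared 1 estimate of spread per locus, in the simulated data too. Real spread was unequal: late NLP4 had an SD of 0.17 on cortex standard and 1.03 on pericycle rhizobium arrays. A p-value can then be too small where arrays scatter more and too large where they scatter less. Contrasts averaged same-hour differences over 13 hours (14 for cell types on standard plates), over windows of 1 to 6, 8 to 16 and 20 to 48 h, or took single hours; late minus early contrasts, means without single hours, the heat shock covariate on windows, hours and gene lists, and leaving out 1 cortex nitrogen array at 2 h were added after seeing the data. P-values were adjusted over all loci by Benjamini-Hochberg. The members, gene lists and tests were chosen with earlier results of these data known. Named genes are the 9 members, the loci of the target, regulator and RKD lists, and the 2 loci most correlated with each member. Symbols came from RefSeq. Alternatives were centred arrays, a replicate block, the heat shock mean as a covariate, dim loci (lowest 20%) left out, the near-identical pair kept, medians of rows, each replicate number left out and each cell type fitted alone. The number of arrays limits the precision. Same-numbered arrays of the same hour had residual correlations with medians of -0.01 and -0.03 in pericycle and -0.00 and -0.00 in cortex (nitrogen and rhizobium with standard), so replicate numbers were not taken as pairs. Over all hours, 19.4%, 12.2% and 28.3% of pericycle pairs both numbered 1, 2 or 3 exceeded 0.1. Among pericycle pairs of unlike numbers 10.3% to 17.7% did. Whether the numbers mark batches was not tested.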

Additional observations from a re-analysis of the deposited data

Results flagged for a closer look

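An array far from the other arrays of its group was looked for in the 10 groups with 4 or more arrays, over 90 combinations of gene and group. Chance alone marks about 1 in 20, and 4 were found. NLP1 read 7.02 on replicate 2 of pericycle at 0 h, against 9.22 to 9.89 on the others, and 6.53 on replicate 1 of pericycle with rhizobium at 4 h, against 10.39 to 10.89. NLP3 read 10.85 on replicate 2 of pericycle with rhizobium at 2 h, against 12.43 to 12.54. NLP7 read 13.08 on replicate 3 of pericycle with rhizobium at 1 h, against 12.65 to 12.72.

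In 5 cases the response itself differed between pericycle and cortex by limma's interaction test. That was 2 of 9 members for nitrogen minus standard, 1 of 9 for nitrogen minus rhizobium and 2 of 9 for rhizobium minus standard, in tests that called 22.7%, 3.51% and 33.4% of all loci. For nitrogen minus standard the pericycle difference less the cortex difference was -1.03 for NLP3 (adjusted p = 0.025) and 1.52 for NLP8 (2.0e-04). For nitrogen minus rhizobium it was 0.86 for NLP6 (0.031). For rhizobium minus standard it was -1.19 for NLP3 (0.0044) and -0.63 for NLP6 (0.032). The cortex standard arrays, with their high heat shock genes, enter all of these but the one for nitrogen minus rhizobium, and with the heat shock mean as a covariate NLP3 gave -0.61 (0.38) for nitrogen and -0.72 (0.25) for rhizobium, and NLP8 gave 0.93 (0.11). Without 1 replicate number, NLP3 for nitrogen was -1.23, -0.70 and -1.12 and lost its call (numbers 1, 2 and 3 left out), NLP6 for nitrogen minus rhizobium was 0.67 (0.38) and 0.70 (0.42) without numbers 2 and 3 and 0.62 (0.11) without the single cortex nitrogen array at 2 h that read 6.74, and NLP6 for rhizobium was -0.30 (0.56) without number 3.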

How the results depend on the processing

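No call on a mean over hours reversed under any alternative, while the NLP6 call at 2 h in cortex did without 1 array. The mean calls of NLP8 and NLP9 on nitrogen, against standard and against rhizobium, held in both cell types under every alternative run, including each hour left out, which was chosen after seeing the data (NLP9 against standard -5.38 to -4.93 in pericycle and -4.41 to -3.70 in cortex). Of 49 calls on members, 37 held with the heat shock mean as a covariate, 47 with centred arrays, 35, 37, 35, 47 and 49 without replicate numbers 1 to 5, and all 49 with dim loci left out, with row medians and with the near-identical pair kept. Fitting each cell type alone kept 27 of 29 calls. The replicate block kept all 34 calls it could test; it gives no value between cell types, in which the numbers are nested.

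Numbers of members called moved as follows. With the replicate block rhizobium in pericycle went to 3 of 9, against 1 as reported, and to 3 with the near-identical pair kept. With the heat shock covariate nitrogen in cortex went to 4 (7 as reported), rhizobium in cortex to 1 (3), pericycle against cortex on standard plates to 3 (7), early nitrogen in cortex to 0 (2; tried after seeing the data), the nitrogen interaction to 0 (2), the rhizobium interaction to 1 (2), and the any-hour rhizobium test to 1 (2) in pericycle and 0 (2) in cortex. With centred arrays the rhizobium interaction, the any-hour rhizobium test in pericycle and early nitrogen in cortex each went to 1 (2). With each cell type fitted alone the 12 h comparison in pericycle went to 0 (1), the any-hour rhizobium test in pericycle to 0 (2), rhizobium in cortex to 5 (3) and the any-hour nitrogen test in cortex to 7 (3). With the near-identical pair kept, the any-hour nitrogen test in pericycle went to 7 (4). Numbers of calls over all loci moved too under several of these settings, as the next paragraph gives. These counts therefore do not describe the members alone. The cause was not tested.

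Leaving out 1 replicate number gave 0 to 3 members for rhizobium in pericycle, 4 to 7 for nitrogen in cortex, 0 to 2 for pericycle against cortex on nitrogen, 0 to 2, 0 to 1 and 1 to 3 for the interactions of nitrogen minus standard, nitrogen minus rhizobium and rhizobium minus standard, 0 to 3 and 0 to 2 for the any-hour rhizobium tests in pericycle and cortex, 0 to 1 for 12 h against dawn in pericycle, and for nitrogen windows 1 to 2 (early pericycle), 0 to 1 (early cortex) and 3 to 5 (late cortex). Counts of calls over all loci moved more (as reported in brackets). The heat shock covariate gave 3902 (9687) for nitrogen and 3465 (10264) for rhizobium in cortex, 983 (4506) and 321 (3654) for their any-hour tests, 4073 (6175) and 6030 (9060) for their interactions and 6037 (10630) between cell types on standard plates. Each cell type alone gave 2409 (3844) and 6316 (4020) for nitrogen against rhizobium in pericycle and cortex, 863 (2832) and 8643 (4506) for any-hour nitrogen, 817 (4035) and 6332 (3654) for any-hour rhizobium, and 26 (354) and 65 (31) for 12 h. The replicate block gave 646 (354) for 12 h in pericycle. Without 1 replicate number the lowest counts were 1759 (5327), 1205 (5936) and 1291 (3844) for nitrogen, rhizobium and nitrogen against rhizobium in pericycle, 1819 (4020) for the last in cortex, 3238 (6331) and 5892 (10630) between cell types on nitrogen and standard plates, 3421 (6175), 28 (954, highest 2512) and 4753 (9060) for the interactions of nitrogen, nitrogen against rhizobium and rhizobium, 815 and 1929 for any-hour nitrogen in pericycle and cortex, 191 and 1476 for any-hour rhizobium, and 20 and 17 for 12 h. Centring moved the median over all loci to 0.15 (0.03) for rhizobium in pericycle, 0.11 (0.00) between cell types with rhizobium and -0.11 (-0.01) for the interaction of nitrogen against rhizobium. It moved the percentage of calls that were higher to 81.5 (59.6) for rhizobium, 55.1 (43.4) for nitrogen and 29.1 (44.1) for nitrogen against rhizobium in pericycle, 68.9 (58.6) for nitrogen in cortex, 62.4 (50.7) between cell types with rhizobium and 15.0 (32.4) for that interaction.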
